A study of Mus musculus with 21 samples.

Results

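The genes described here are 10 transcripts of the oxidant defence that the transcription factor NRF2 controls: Nfe2l2, Nqo1, Gclc, Gclm, Txnrd1, Srxn1, Hmox1, Gpx2, Gpx3 and G6pdx. They were chosen by name, and the row of the count table whose Ensembl ID carries each symbol in the GRCm38 annotation was taken, which found 10 of 10 among 52636 gene IDs. RNA counts came from 21 bulk liver samples of wild-type mice. CDA-HFD is a high-fat diet with defined amino acids and no choline, used to bring on steatohepatitis and fibrosis in mice. It had been fed for 8 weeks before 8 of the samples and for 16 weeks before 8 others. The remaining 5 livers came from mice kept on normal chow for 8 weeks, a group that carries the label week 0. No chow group stood beside the 16-week livers, so in that comparison the mice's age cannot be told apart from the length of feeding. With the label week 0, whether the chow livers match the 8-week livers in age cannot be told either. No agent, transgene or induced mutation is given for any group, nor the sex, the strain or the age at the start. Nothing in the labels says how the mice were housed or in which batches their RNA was handled.

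NRF2, the product of Nfe2l2, is held in the cytoplasm by KEAP1, which presents it to a CUL3 ubiquitin ligase for breakdown. When oxidants or electrophiles modify KEAP1, NRF2 escapes breakdown, enters the nucleus, pairs with a small MAF protein and binds antioxidant response elements near its target genes. BACH1, which pairs with the same MAF proteins, represses part of those targets. NRF2 is controlled largely at the protein level, so its own transcript need not follow its activity. In liver, hepatocytes use this programme for glutathione synthesis and detoxification, while Hmox1 and parts of the NADPH-generating machinery are also prominent in macrophages. All values here are transcripts in whole liver, in which fewer cells of a type and less RNA per cell cannot be told apart.

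The antioxidant response element has a core that was searched as TGACNNNGC and as TGAGNNNGC on both strands, in the 250 bases before each RefSeq start (GRCm38.p6). The 2 spellings cannot match the same bases on the same strand. RefSeq windows were matched for 8 of the 10 genes, 10 windows in all, and 5 genes had a match. Among 32851 windows of all genes, 10.2% held the first spelling, 14.4% the second and 23% either. A match describes these letters only and shows no binding. The stretches with a match are shown because the genes behind them moved in different ways on the diet: Srxn1 and G6pdx were higher at both times, Nfe2l2 at 16 weeks, and Gclm was lower. Each is written 5′ to 3′ along the gene's strand, with the match in capitals, reading in reverse complement where it lies on the other strand.
Srxn1, plus strand, chr2:152105356-152105497, between genes: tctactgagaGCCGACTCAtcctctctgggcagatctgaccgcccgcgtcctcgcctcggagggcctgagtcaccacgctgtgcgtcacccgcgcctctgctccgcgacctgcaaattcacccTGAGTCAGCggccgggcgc
G6pdx, minus strand, chrX:74428919-74428947, in an exon of G6pdx: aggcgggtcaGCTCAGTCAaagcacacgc
Nfe2l2, minus strand, chr2:75704885-75704913, in an exon of the neighbouring transcript E030042O20Rik: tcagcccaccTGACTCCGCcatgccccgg
Gclm, plus strand, chr3:122245413-122245441, between genes: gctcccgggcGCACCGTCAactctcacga
Txnrd1, plus strand, chr10:82859104-82859132, in an intron of Txnrd1: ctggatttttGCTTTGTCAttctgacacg
Srxn1 alone had 2 matches, 158 to 150 and 45 to 37 bases before its start. Nqo1, Gpx2 and Gpx3 had none of these letters in their windows.

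Library totals lay between 35254088 and 48901145 counts in the 16-week group and between 29037525 and 45868842 in the 8-week group, against 33522456 to 42586342 on chow. Levels are given as CPM, counts taken relative to the library's total and scaled with TMM factors that adjust for differences in RNA composition. All 8 hepatocyte markers reached a mean of 1 CPM in every group, and their sum was 75310 to 106940 CPM after 16 weeks and 98266 to 337120 CPM after 8 weeks, against 99968 to 147120 CPM on chow. One library stood apart: 8-week replicate 3 correlated with the other 7 of its group at r of 0.829 to 0.898 across genes. Its mitochondrial share was 0.25%, where the remaining CDA-HFD livers had 2.22 to 3.18%. Chow livers had 4.23 to 5.34%, above all CDA-HFD livers, and the part of this difference in the results was not tested. TMM factors were 1.15 to 1.30 after 16 weeks and 0.496 to 1.17 after 8 weeks, against 0.811 to 0.879 on chow. The library that stood apart, 8-week replicate 3, also held 1777 CPM of squamous epithelium markers, 2599 CPM of skeletal muscle markers and 529.6 CPM of fat markers. Among the 10 genes it was the highest liver of its group for Nqo1, Srxn1, Gpx2, Gpx3 and G6pdx and the lowest for Nfe2l2, Gclc, Gclm, Txnrd1 and Hmox1. For the 10 genes, results are given with and without it where it changes a call or moves a called value by over 1.5 times. Squamous markers also passed 50 CPM in 8-week replicate 6 and in 16-week replicates 1, 4 and 7. Exocrine pancreas markers passed 100 CPM in 8-week replicates 4 and 5 (8062 and 380.7 CPM). Skeletal muscle markers also reached 373.0 CPM in chow replicate 5 and 323.0 CPM in 8-week replicate 6. In 16-week replicates 1, 4 and 7 they reached 385.4, 359.8 and 220.5 CPM.

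The first question was whether the transcripts of the NRF2 programme were higher on CDA-HFD than on chow. They did not move as 1 block. After 8 weeks, 6 of the 10 genes rose (Nqo1, Srxn1, Hmox1, Gpx2, Gpx3 and G6pdx), 2 fell (Gclc and Gclm) and 2 were not called, at an adjusted p under 0.05 in edgeR's quasi-likelihood test. In that comparison 51.3% of the 17104 genes tested were called, 30.8% higher and 20.5% lower. After 16 weeks, 7 rose, with Nfe2l2 added, 2 fell and Txnrd1 was not called, while 51.9% of all genes were called, 29.4% higher and 22.5% lower. The median log2 fold change of the 10 genes was 1.09 at 8 weeks and 1.10 at 16 weeks, against medians of 0.16 and 0.03 over all genes tested. The medians of the 10 include Gpx2, and the genes were chosen with earlier results of these data known, so the contrast is a description only. All 10 passed the filter on low counts, but Gpx2 did so only through its CDA-HFD libraries, so that its direction was fixed by the filter, and 5 of the genes that rose at 8 weeks and 6 at 16 weeks do not rest on it. The libraries of the groups did not overlap for 5 genes at 8 weeks (30.1% of all genes) and for 8, Gpx2 among them, at 16 weeks (50.5% of all genes). Without 8-week replicate 3, 7 rose, Gpx2 among them, and 2 fell at 8 weeks, and 7 rose, again with Gpx2, and 3 fell at 16 weeks, with 57.2% and 66.4% of all genes called. Both CDA-HFD groups were set against the same 5 chow livers.

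**Figure D1:**
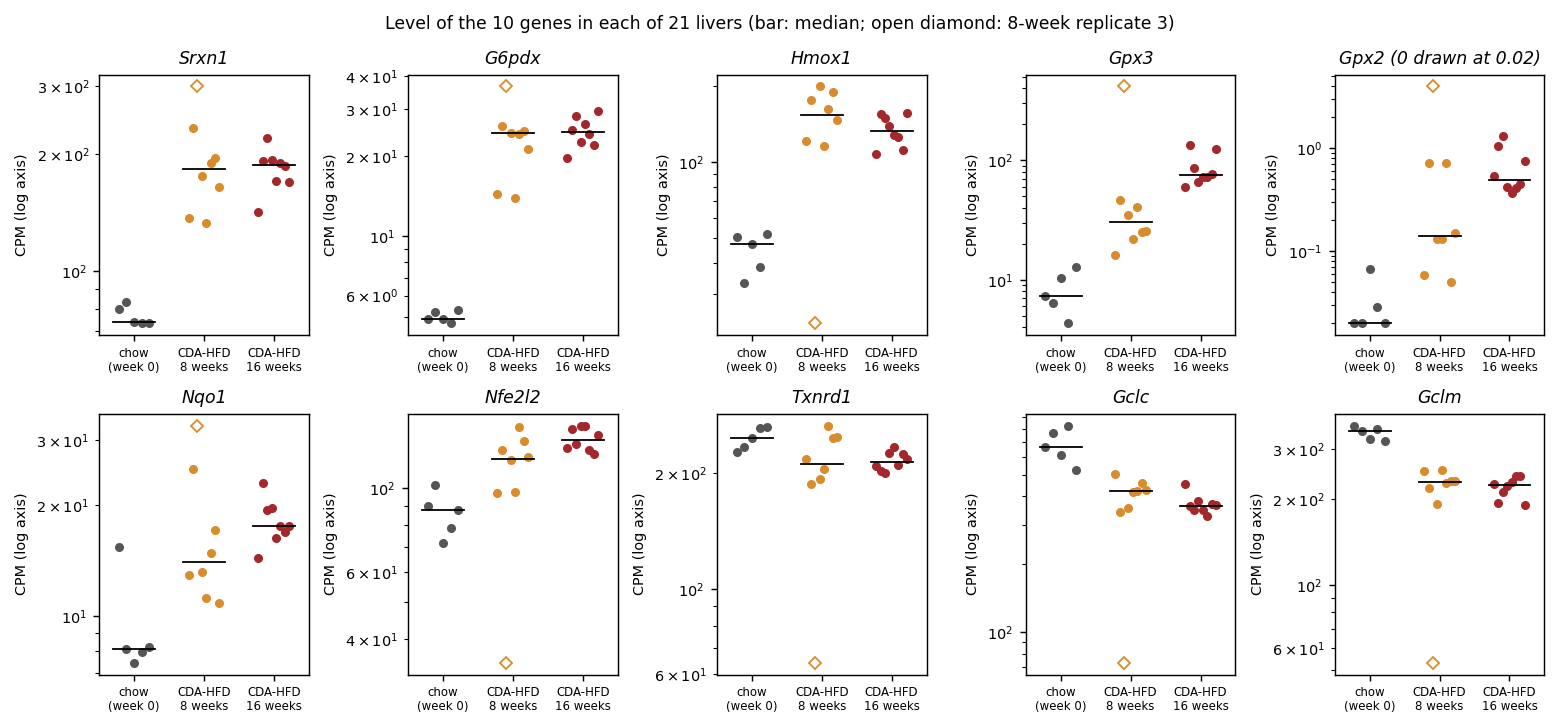
CPM of each of the 10 genes in each liver on a log axis, by group (1 point per library, bar at the median, open diamond for 8-week replicate 3). The Srxn1 and G6pdx points of all 16 CDA-HFD livers lie above the 5 chow points, those of Gclc and Gclm lie below them, and the diamond is the highest or lowest 8-week point in every panel.

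Nfe2l2 (ENSMUSG00000015839, GRCm38 chromosome 2, 75675513 to 75704641, minus strand) encodes NRF2 itself. It lay between 34.6 and 145 CPM in 8-week livers with a median of 119.8 CPM, against 90.1, 102, 71.9, 78.4 and 87.6 CPM in the chow livers. After 16 weeks it lay between 123 and 146 CPM with a median of 135 CPM. All 8 livers of the 16-week group were above all chow livers, whereas the 8-week range covered the chow range through replicate 3 and came down to 97.28 and 97.97 CPM in replicates 1 and 5. The log2 fold change was 0.65 ± 0.21 at 16 weeks (SE; edgeR adjusted p = 0.0133) and 0.34 ± 0.21 at 8 weeks (edgeR adjusted p = 0.172). With 8-week replicate 3 left out, the 8-week difference was 0.47 and was called (edgeR adjusted p = 0.000646).

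Srxn1 (ENSMUSG00000032802, chromosome 2, 152105516 to 152111376, plus strand) encodes sulfiredoxin, which restores over-oxidized peroxiredoxins. It ran from 134 to 299 CPM in 8-week livers with a median of 183 CPM, against 79.8, 83.5, 74.1, 73.4 and 73.6 CPM in the chow livers. The 16-week livers ran from 142 to 221 CPM with a median of 188 CPM. Each CDA-HFD liver stood above each chow liver. Srxn1 rose 2.49-fold at 8 weeks (log2 fold change 1.32 ± 0.17, SE; edgeR adjusted p = 2.15e-06) and 2.38-fold at 16 weeks (1.25 ± 0.17; edgeR adjusted p = 2.02e-06).

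Txnrd1 (ENSMUSG00000020250, chromosome 10, 82833951 to 82897712, plus strand), the cytosolic thioredoxin reductase, was not called at either time. Its 8-week levels spanned 64.2 to 266 CPM with a median of 211 CPM, against 227.5, 234, 246.5, 262.5 and 264 CPM on chow. Its 16-week levels spanned 200.4 to 233 CPM with a median of 214 CPM. The groups overlapped at both times, with a log2 fold change of -0.28 ± 0.20 at 8 weeks (edgeR adjusted p = 0.251) and of -0.20 ± 0.20 at 16 weeks (edgeR adjusted p = 0.442). Leaving out 8-week replicate 3, the 16-week difference of -0.20 was called (edgeR adjusted p = 0.037). Scaled by total counts alone, the same difference was 0.33 (edgeR adjusted p = 0.344), so its sign depends on the scaling.

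Gclc and Gclm encode the catalytic and the modifier subunit of glutamate-cysteine ligase, the rate-limiting enzyme of glutathione synthesis, and both fell. Gclc (ENSMUSG00000032350, chromosome 9, 77754535 to 77794485, plus strand) had 73.15 to 501 CPM in 8-week livers with a median of 422 CPM, against 666, 763, 614, 824 and 526.2 CPM in the chow livers. After 16 weeks it had 328 to 455 CPM with a median of 364 CPM. Gclm (ENSMUSG00000028124, chromosome 3, 122245557 to 122270732, plus strand) had 53.3 to 253 CPM in 8-week livers with a median of 229.7 CPM, against 362, 348, 326, 352 and 319.6 CPM on chow. In 16-week livers it had 191 to 242 CPM with a median of 224 CPM. For both subunits every CDA-HFD liver lay below every chow liver. Gclc fell by 0.86 ± 0.26 on the log2 scale at 8 weeks (SE; edgeR adjusted p = 0.0102) and by 0.87 ± 0.26 at 16 weeks (edgeR adjusted p = 0.00766). The log2 fold change of Gclm was -0.72 ± 0.22 at 8 weeks (edgeR adjusted p = 0.0106) and -0.64 ± 0.22 at 16 weeks (edgeR adjusted p = 0.0197).

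The calls of both subunits depend on the scaling. Scaled by total counts alone, the median log2 fold change of all genes was higher by 0.118 at 8 weeks and by 0.528 at 16 weeks than with TMM factors. On that scale the Gclc difference was -0.64 at 8 weeks (edgeR adjusted p = 0.112) and -0.34 at 16 weeks (edgeR adjusted p = 0.384). For Gclm it was -0.51 at 8 weeks (edgeR adjusted p = 0.156) and -0.11 at 16 weeks (edgeR adjusted p = 0.779). Summed hepatocyte markers had medians of 86045 CPM after 16 weeks and 138350 CPM after 8 weeks, against 133850 CPM on chow. The part of hepatocyte content in the levels of Gclc and Gclm was not tested. Relative to the median of all genes on the scale of total counts, Gclc was at -0.91 and -0.90 and Gclm at -0.79 and -0.66. Subtracting that median centres the values on the typical gene, much as TMM factors do, so it is no separate check of the falls. Without a filter on low counts the 16-week call of Gclm was lost as well. The 8-week difference was called in both without 8-week replicate 3 (edgeR adjusted p = 2.05e-05 for Gclc and 2.55e-06 for Gclm).

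Nqo1 (ENSMUSG00000003849, chromosome 8, 107388225 to 107403206, minus strand) encodes the quinone reductase that is the usual readout of NRF2 activity. It was read at 10.8 to 32.9 CPM in 8-week livers with a median of 14.0 CPM, against 15.4, 8.12, 7.45, 7.965 and 8.24 CPM in the chow livers. After 16 weeks it was read at 14.4 to 23.0 CPM with a median of 17.5 CPM. Chow replicate 1, at 15.4 CPM, stood within the range of both CDA-HFD groups, while the other 4 chow livers lay below all 16. Nqo1 rose 1.82-fold at 8 weeks (log2 fold change 0.87 ± 0.25; edgeR adjusted p = 0.00756) and 1.92-fold at 16 weeks (0.94 ± 0.25; edgeR adjusted p = 0.00355).

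Hmox1 (ENSMUSG00000005413, chromosome 8, 75093621 to 75100589, plus strand), the inducible heme oxygenase that opens the heme ring, is under BACH1 as well as NRF2 control. In 8-week livers it ran from 22.95 to 199.8 CPM with a median of 154 CPM, against 50.5, 33.1, 47.3, 38.5 and 52.0 CPM on chow. In 16-week livers it ran from 107 to 157 CPM with a median of 133 CPM. Only 8-week replicate 3, at 22.95 CPM, lay below the chow livers, and the other 15 CDA-HFD livers lay above all of them. Hmox1 rose 3.2-fold at 8 weeks (log2 fold change 1.68 ± 0.32; edgeR adjusted p = 0.000205) and 3.03-fold at 16 weeks (1.60 ± 0.31; edgeR adjusted p = 0.000218).

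G6pdx (ENSMUSG00000031400, chromosome X, 74409483 to 74429194, minus strand) encodes glucose-6-phosphate dehydrogenase, the entry enzyme of the pentose phosphate pathway and a main source of NADPH. It stood at 13.9 to 36.5 CPM in 8-week livers with a median of 24.3 CPM, against 4.89, 5.19, 4.89, 4.72 and 5.29 CPM in the chow livers. After 16 weeks it stood at 19.7 to 29.5 CPM with a median of 24.6 CPM. The lowest CDA-HFD liver, at 13.9 CPM, was well above the highest chow liver, at 5.29 CPM. G6pdx rose 4.63-fold at 8 weeks (log2 fold change 2.21 ± 0.19; edgeR adjusted p = 2.36e-08) and 4.94-fold at 16 weeks (2.31 ± 0.19; edgeR adjusted p = 5.47e-09), the smallest adjusted p among the 10 genes at both times. Its exons overlap those of Ikbkg on the opposite strand, which had 913 to 5987 counts per library, and the strand setting of the counting is not given in the sources used here. Its retrocopy G6pd2 had 0 to 31 counts per library.

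Gpx3 (ENSMUSG00000018339, chromosome 11, 54902453 to 54910377, plus strand) encodes the secreted glutathione peroxidase of plasma. In 8-week livers it covered 16.1 to 415 CPM with a median of 30.3 CPM, against 7.32, 6.34, 10.3, 4.32 and 12.7 CPM on chow. In 16-week livers it covered 59.2 to 135 CPM with a median of 74.7 CPM. Every CDA-HFD liver lay above every chow liver, and 8-week replicate 3 was far above all 20 others. Gpx3 rose 9.52-fold at 8 weeks (log2 fold change 3.25 ± 0.73; edgeR adjusted p = 0.00111) and 10.6-fold at 16 weeks (3.399 ± 0.74; edgeR adjusted p = 0.00058). Without 8-week replicate 3 the 8-week log2 fold change was 1.87 (edgeR adjusted p = 2.5e-05), with the other 7 livers between 16.1 and 46.5 CPM.

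Gpx2 (ENSMUSG00000042808, chromosome 12, 76792333 to 76795554, minus strand), the glutathione peroxidase best known from gut epithelium, was the scarcest of the 10. It reached 0.0508 to 3.96 CPM in 8-week livers with a median of 0.141 CPM, against 0, 0, 0.0675, 0.0290 and 0 CPM in the chow livers. It reached 0.370 to 1.30 CPM in 16-week livers with a median of 0.491 CPM. The chow group held 3 Gpx2 counts in all and 3 of its 5 libraries held none. The pooled ratio to chow was 25.7 at 8 weeks (exact 95% interval 8.6 to 126, counting error only) and 35.1 at 16 weeks (11.9 to 171). Gpx2 was called higher in both comparisons, but since it passed the filter only through the livers in which it was high, its values stand as a description. Of its 132 counts at 8 weeks, 57 were in replicate 3, and without that library the 8-week ratio was 15.4 (5.07 to 76.3). Gut epithelium markers summed to 81.2 to 155 CPM after 16 weeks and 71.6 to 356 CPM after 8 weeks, against 41.55 to 82.2 CPM on chow. The sum was highest in 8-week replicates 3 and 2 (356.3 and 208.9 CPM) and in 16-week replicates 2 and 3 (154.6 and 135.6 CPM). The same livers were the highest of their groups for Gpx2. In 8-week replicate 6 Gpx2 stood at 0.7183 CPM with the lowest gut sum of its group, 71.56 CPM. Of the 6 gut markers, Cdx2, a transcription factor, had no counts in any 16-week or chow library. The part of gut epithelium in the Gpx2 result was not tested.

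**Figure D2:**
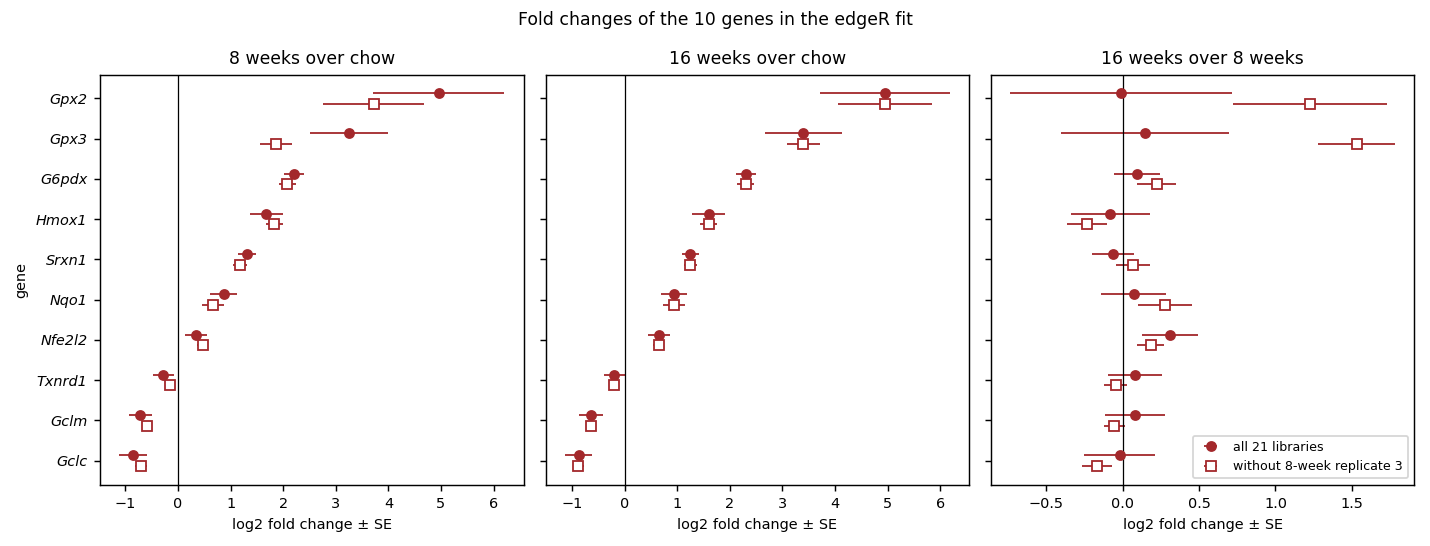
Log2 fold change ± SE of each gene in the edgeR fit for 8 weeks over chow, 16 weeks over chow and 16 over 8 weeks (filled circles with all 21 libraries, open squares without 8-week replicate 3). Both subunits of glutamate-cysteine ligase lie left of 0 in the first and second panels, and in the third panel Gpx3 moves to 1.53 once that library is left out.

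The third comparison asked whether the longer time on the diet changed these levels further. Between 16 and 8 weeks, 0 of the 10 genes were called by edgeR's quasi-likelihood test, where 21.6% of all genes were (10.6% higher and 11% lower), and 0 had an unadjusted p under 0.05. The libraries of the groups overlapped for all 10, where they did not overlap for 3.09% of all genes. Their log2 fold changes ran from -0.08 ± 0.26 for Hmox1 to 0.31 ± 0.18 for Nfe2l2, with a median of 0.08. The SE of 0.55 for Gpx3 and 0.72 for Gpx2 leave room for sizeable differences in either direction. DESeq2 called 1 (Gpx3) and limma voom with quality weights called 2 (Gpx2 and Gpx3). Without 8-week replicate 3, Gpx3 was higher after 16 weeks by 1.53 ± 0.25 on the log2 scale (edgeR adjusted p = 0.000239), where 27.3% of all genes were called. All 8 of the 16-week livers, at 59.2 to 135 CPM, then lay above all 7 remaining 8-week livers, at 16.1 to 46.5 CPM. For Gpx2 that difference was 1.23 (edgeR adjusted p = 0.0748).

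Some of these genes varied together within the 8-week group, a pattern picked out after the values were seen. Replicates 1 and 5 were the lowest livers of the group but for replicate 3 in Nfe2l2 (97.28 and 97.97 CPM) and in Hmox1 (121 and 116 CPM). They were the lowest of all 8 in G6pdx (14.4 and 13.9 CPM), Srxn1 (137 and 134 CPM) and Gpx3 (16.1 and 21.8 CPM). Replicates 1 and 5 had the lowest summed levels of 9 macrophage markers, 1755 and 2013 CPM, where replicate 3 had 7397 CPM and the others 2695 to 3633 CPM. They were also the lowest of the group in stellate cell and myofibroblast markers (619 and 828 CPM), in T and NK cell markers (8.84 and 13.3 CPM) and in neutrophil markers (16.9 and 20.2 CPM). In hepatocyte markers they were the highest but for replicate 3 (197600 and 184900 CPM). Sinusoidal endothelium markers summed to 445.0 and 429.0 CPM in them, where the other 8-week livers had 285.2 to 436.8 CPM. Macrophage markers as a whole summed to 2897 to 4892 CPM after 16 weeks and 1755 to 7397 CPM after 8 weeks, against 422 to 565 CPM on chow. All 9 reached a mean of 1 CPM in both CDA-HFD groups and 7 did on chow. Bile duct markers summed to 485 to 1549 CPM after 16 weeks and 125 to 501 CPM after 8 weeks, against 76.0 to 109.98 CPM on chow. Stellate cell and myofibroblast markers summed to 1257 to 1765 CPM after 16 weeks and 619 to 1510.3 CPM after 8 weeks, against 221 to 378 CPM on chow. The part of these cells in the levels of Hmox1, G6pdx, Srxn1, Gpx3 and the others was not tested.

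Ratios of counts within a library need no scaling between libraries, and 4 were compared with exact two-sided permutation tests, 12 in all, with Benjamini-Hochberg adjustment over the 12. G6pdx counts relative to those of H6pd, the endoplasmic reticulum counterpart, separated the groups completely. The ratio was 0.0161 to 0.0611 in 8-week livers, against 0.00394 to 0.0051 in the chow livers, a 7.17-fold difference (exact permutation p = 0.00155, the smallest that 8 against 5 livers allow, adjusted p = 0.00622). In 16-week livers it was 0.0276 to 0.0706, a 9.63-fold difference from chow with the same p. H6pd itself was lower on CDA-HFD, at 573 ± 122 CPM after 16 weeks and 704 ± 176 CPM after 8 weeks, against 1108.5 ± 115 CPM on chow (SD, edgeR adjusted p = 0.000119 and 0.00474), so both terms moved.

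Hmox1 counts relative to those of Hmox2, the constitutive heme oxygenase, were 1.5 to 2.55 in 16-week livers, against 0.598 to 0.962 in the chow livers. That 2.39-fold difference was complete (exact permutation p = 0.00155, adjusted p = 0.00622). In 8-week livers the ratio was 0.0776 to 2.58, and the difference of 0.67 on the log2 scale did not pass (exact permutation adjusted p = 0.593). Without 8-week replicate 3, which held the value of 0.0776, the 8-week difference was 1.24 on the log2 scale and passed (exact permutation adjusted p = 0.00758). Hmox2 itself was called higher at 8 weeks, by 1.002 on the log2 scale (edgeR adjusted p = 0.00551) and by 0.61 without replicate 3.

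Txnrd1 counts relative to those of Txnrd2, the mitochondrial reductase, were 5.77 to 8.56 in 16-week livers, against 4.84 to 6.83 on chow. The 1.25-fold difference just passed (exact permutation p = 0.0155, adjusted p = 0.0466), with 5 of 8 livers above all chow livers. It was lost when any of 10 single libraries was left out, namely chow replicates 1 to 4 and 16-week replicates 1 and 4 to 8, with adjusted p up to 0.121. Txnrd2 itself was lower at 16 weeks than on chow (log2 fold change -0.51, edgeR adjusted p = 0.0161), while Txnrd1 was not called. In 8-week livers the ratio spread from 0.923 in replicate 3 to 10.5 and did not differ (exact permutation adjusted p = 0.827). The ratio of Gclm to Gclc was 0.498 to 0.738 after 16 weeks and 0.502 to 0.728 after 8 weeks, against 0.427 to 0.607 on chow. Its difference on the log2 scale was 0.22 at 16 weeks (exact permutation adjusted p = 0.186) and 0.17 at 8 weeks (exact permutation adjusted p = 0.259), so no unequal change of the subunits was detected. Between 16 and 8 weeks 0 of the 4 ratios passed, with exact permutation adjusted p of 0.259 or higher, and 0 had an unadjusted p under 0.05.

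**Figure D3:**
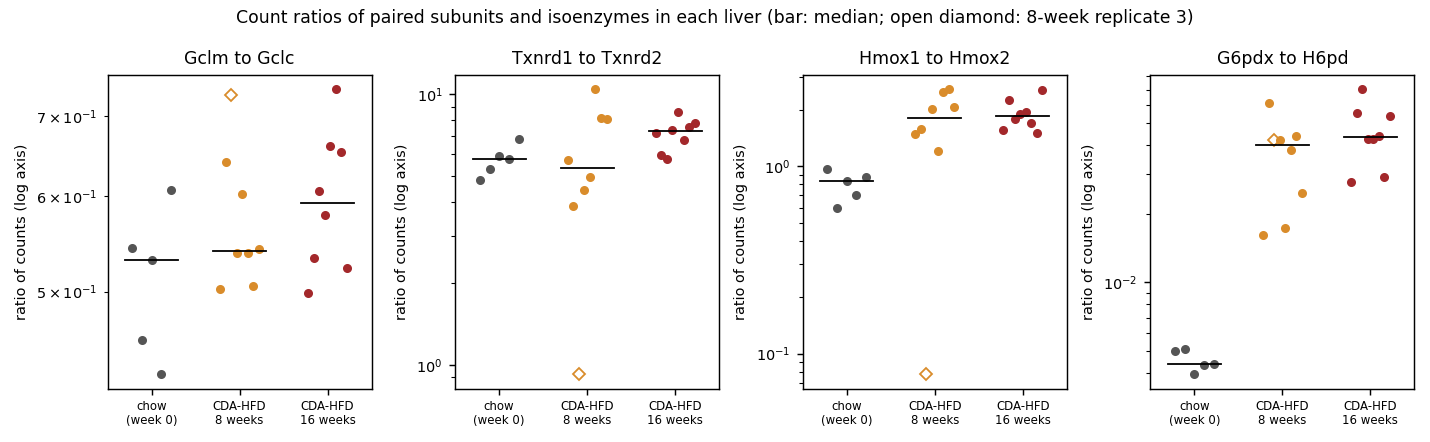
Ratio of counts of Gclm to Gclc, Txnrd1 to Txnrd2, Hmox1 to Hmox2 and G6pdx to H6pd in each liver on a log axis, by group (1 point per library, bar at the median, open diamond for 8-week replicate 3). The G6pdx to H6pd ratio is 0.0161 or higher in all 16 CDA-HFD livers and 0.0051 or lower in all 5 chow livers.

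Per kilobase of exon, the order of the levels was not the same on the diet. Among 16-week livers, Gclc came first with 98.3 ± 10.1 FPKM (SD, n = 8), then Hmox1 with 76.6 ± 10.9, Srxn1 with 65.0 ± 8.11, Gpx3 with 47.7 ± 15.5 and Nfe2l2 with 35.6 ± 2.48 FPKM. Below them came Gclm with 34.9 ± 3.11, Txnrd1 with 30.4 ± 1.68, Nqo1 with 11.6 ± 1.67, G6pdx with 8.02 ± 1.07 and Gpx2 with 0.205 ± 0.107 FPKM. In chow livers Gclc had 180.2 ± 31.4 FPKM (SD, n = 5), Gclm 54.3 ± 2.87, Txnrd1 34.8 ± 2.32, Srxn1 27.3 ± 1.62 and Hmox1 25.3 ± 4.66 FPKM. They were followed by Nfe2l2 with 22.7 ± 3.04, Nqo1 with 6.07 ± 2.15, Gpx3 with 4.52 ± 1.83, G6pdx with 1.62 ± 0.0762 and Gpx2 with 0.00599 ± 0.00922 FPKM. Neighbours in the order that differed by no more than the larger of their SDs were Gpx3, Nfe2l2 and Gclm at 16 weeks, and Srxn1, Hmox1 and Nfe2l2 as well as Nqo1 and Gpx3 on chow. With 8-week replicate 3 in the group, 7 of the 9 neighbouring pairs at 8 weeks did not differ beyond that spread. Lengths were those of all annotated exons together, so genes with many isoforms may be understated.

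Genes whose pattern over the libraries came closest were found as the smallest root mean square difference in log2 CPM after centring, over 13626 genes. Over all 21 libraries the nearest were Tifab (0.103) for G6pdx, Clec4a3 (0.215) for Hmox1, Plpp2 (0.194) for Nqo1, Timp2 (0.452) for Gpx3 and Phf11b (0.16) for Srxn1. For the others they were Ankrd10 (0.138) for Nfe2l2, Mtif2 (0.134) for Gclc, Pdha1 (0.0941) for Gclm, Tank (0.0798) for Txnrd1 and Crlf2 (0.197) for Gpx2. The next nearest were Sh3kbp1, Prkcd, Ift43, Slpi and Ctps2 for the first 5, and Klc1, Chuk, Ube2g1, Rap1gds1 and Oas1c for the others. Much of this order rested on 8-week replicate 3. Over the 20 other libraries, a choice made after seeing the data, Tifab and Plpp2 remained the nearest to G6pdx and Nqo1. The nearest to Srxn1 was Pgd (0.109), the next dehydrogenase of the pentose phosphate pathway after G6pdx, followed by Krt8-ps (0.136). For the others the nearest were Abi3 for Hmox1, Cx3cl1 for Gpx3, Myo1c for Nfe2l2 and Polr2b for Gclc. They were A130010J15Rik for Gclm, Rap1gds1 for Txnrd1 and Tyro3 for Gpx2. These distances describe levels only.

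Around the 10 genes, 96 others of the same pathways were followed in 10 lists, of which 94 were tested. The counts in each list stand beside 51.3% of all genes called at 8 weeks and 51.9% at 16 weeks, and several are near or below those shares. Counts without 8-week replicate 3 stand beside higher shares, 57.2% at 8 weeks, 66.4% at 16 weeks and 27.3% between 16 and 8 weeks. Among 8 regulators of NRF2, 3 rose and 2 fell at 8 weeks and 3 rose and 1 fell at 16 weeks (median log2 fold change 0.05 and -0.07). Maff and Mafk, small MAF partners of NRF2, rose by log2 fold changes of 0.91 and 0.59 at 8 weeks and 1.40 and 0.91 at 16 weeks. Sqstm1, which competes with NRF2 for KEAP1, had 709 ± 164 CPM in 8-week and 814 ± 43.9 CPM in 16-week livers, against 502 ± 29.3 CPM on chow (log2 fold change 0.50 and 0.70). Bach1, the repressor, had 27.6 ± 15.4 CPM at 8 weeks, against 59.2 ± 8.93 CPM on chow, and fell by 1.10 on the log2 scale (edgeR adjusted p = 0.0185). Cul3, the ligase scaffold, fell by 0.38 at 8 weeks and 0.43 at 16 weeks on the log2 scale. The 8-week calls of Maff and Sqstm1 were lost with only the 2 groups in the fit (edgeR adjusted p = 0.0665 and 0.077). When 8-week replicate 3 was left out, 3 regulators were lower at 8 weeks and 4 at 16 weeks, the 16-week ones being Bach1 (-0.71), Keap1 (-0.22) and Nfe2l1 (-0.31) besides Cul3. Scaled by total counts, 0 of the 8 regulators were called lower at either time, and the 16-week difference of Cul3 was 0.10. On that scale 78.28% of all calls at 8 weeks and 89.55% at 16 weeks were higher.

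Glutathione genes outside the ligase divided. Of 10, 5 rose and 2 fell at 8 weeks and 4 rose and 4 fell at 16 weeks (median 0.67 and 0.19). Slc7a11, which imports cystine for glutathione, had 5.71 ± 2.88 CPM in 8-week and 5.94 ± 1.4 CPM in 16-week livers, against 0.0629 ± 0.0626 CPM on chow. Its log2 fold changes were 6.47 ± 0.58 and 6.52 ± 0.58 (edgeR adjusted p = 3.18e-08 and 1.1e-08). No chow liver held more than 0.137 CPM of Slc7a11 or 0.110 CPM of Ggt1, which is also counted among those that rose. Both passed the filter only through CDA-HFD livers, so their direction was fixed and their values stand as a description. Gss, glutathione synthetase, rose at both times (1.45 and 0.85), as did Ggct, a cyclotransferase of the same cycle (1.30 and 0.83). Chac1, which degrades glutathione, rose at 8 weeks (1.71). Oplah, which recycles 5-oxoproline, fell at both times (-0.79 and -1.21), and Glo1, glyoxalase 1, fell at 16 weeks (-1.37). Glo1 also fell at 8 weeks when replicate 3 was left out (-0.76, edgeR adjusted p = 0.000585, against -0.27 with it). At both times, with TMM scaling, the second enzyme of glutathione synthesis was called higher while Gclc and Gclm were called lower. The cystine importer was higher too, but with its direction fixed by the filter.

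Among 5 other glutathione peroxidases, 3 rose and 0 fell at both times (median 1.74 and 1.39). Gpx7 rose by 2.96 at 8 weeks and 2.62 at 16 weeks on the log2 scale, Gpx8 by 1.74 and 2.21 and Gpx6 by 1.85 and 1.39. Gpx1 and Gpx4, the cytosolic form and the form that acts on lipid peroxides, were not called (edgeR adjusted p of 0.0612 to 0.821). In the thioredoxin and peroxiredoxin list of 14, 1 rose and 2 fell at 8 weeks and 1 rose and 4 fell at 16 weeks (median 0.20 and -0.04). Prdx6 fell by 0.86 on the log2 scale at 16 weeks, and Sesn1, a sestrin, rose by 0.69. Txnrd2 and Txnrd3 also fell at 16 weeks (-0.51 and -0.64), calls lost when scaled by total counts. At 8 weeks Prdx4 (0.45), Prdx6 (-0.37) and Txnrd3 (-0.57) were called, and Prdx4 was not called without replicate 3 (0.35, edgeR adjusted p = 0.0646), while Prdx6 lost its 8-week call under 16 of 31 alternatives and Txnrd3 under 4, total counts among them. With that library left out, 2 of the list were higher at 8 weeks, Sesn1 (0.43) among them, and the 16-week counts were 2 higher and 6 lower.

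Of 5 genes of superoxide dismutases and catalase, 1 rose and 2 fell at 8 weeks and 1 rose and 4 fell at 16 weeks (median 0.08 and -0.84). Leaving out 8-week replicate 3, the 8-week median was -0.34. Cat, which splits hydrogen peroxide in peroxisomes, had 1752 ± 357 CPM in 16-week and 2199 ± 637 CPM in 8-week livers, against 4722 ± 480.1 CPM on chow (log2 fold change -1.43 and -1.10). Sod3, the extracellular form, was the one that rose (1.21 at 16 weeks and 1.47 at 8 weeks), while Sod2, the mitochondrial form, fell by 0.87 at 16 weeks and 0.54 at 8 weeks and Sod1 by 0.84 at 16 weeks on the log2 scale. The Sod1 and Sod2 calls were lost when scaled by total counts. Over chow, stellate cell markers were higher at both times, as Sod3, Gpx7 and Gpx8 were. The median of hepatocyte markers was lower than on chow at 16 weeks, as Cat was. At 8 weeks Cat was lower too, while that median was not (138350 CPM, against 133850 CPM on chow). The sums are given above, and the part of these cells was not tested.

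NADPH supply was split. Of 9 genes, 4 rose and 3 fell at 8 weeks and 2 rose and 3 fell at 16 weeks (median 0.21 and 0.08). Pgd, which follows G6pdx in the pentose phosphate pathway, rose by 1.04 at 8 weeks and 1.19 at 16 weeks on the log2 scale. Me1, cytosolic malic enzyme, had 14.5 ± 5.62 CPM in 8-week and 15.6 ± 5.42 CPM in 16-week livers, against 92.4 ± 24.4 CPM on chow (-2.67 and -2.56). Idh1, cytosolic isocitrate dehydrogenase, also fell at both times (-0.74 and -1.05), the 16-week call being lost when scaled by total counts (edgeR adjusted p = 0.0568). Taldo1 rose at 8 weeks (1.07, and 0.53 without replicate 3), a call lost with only the 2 groups in the fit, while the 8-week call of Pgls (1.34) was lost without replicate 3 (0.27, edgeR adjusted p = 0.27) and under 22 of 31 alternatives in all. Of 7 genes of heme breakdown and iron storage, 4 rose at 8 weeks and 0 were called at 16 weeks (median 0.84 and 0.35). They were Fth1 (1.61, and 0.79 without replicate 3), Blvra (1.12, and 0.70), Hmox2 (1.002, and 0.61) and Slc48a1 (0.76, and 0.42), whose call was lost with only the 2 groups in the fit. Without that library the same 4 also rose at 16 weeks and Slc40a1, the iron exporter, fell.

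Of 19 tested detoxification genes often named as NRF2 targets, 3 rose and 9 fell at 8 weeks and 4 rose and 9 fell at 16 weeks (median -0.47 and -0.30). Scaled by total counts, the 16-week split was 6 higher and 5 lower, where 89.55% of all calls at 16 weeks were higher. Akr1b8, an aldose reductase, rose by 2.98 at 8 weeks (2.33 without replicate 3) and by 2.499 at 16 weeks, and Cbr3, a carbonyl reductase, by 2.60 and 2.74. Gstp1, a glutathione transferase, had 113 ± 28.2 CPM in 16-week and 239 ± 246 CPM in 8-week livers, against 624.8 ± 55.2 CPM on chow. Its log2 fold change was -2.46 at 16 weeks and -1.39 at 8 weeks (-2.03 without 8-week replicate 3). Aox1, an aldehyde oxidase, fell at both times (-1.43 at 16 weeks and -1.56 at 8 weeks). On the oxidant-producing side, 7 of 10 genes rose and 1 fell at 8 weeks and 7 rose and 2 fell at 16 weeks (median 2.25 and 2.30). These were led by subunits of the phagocyte NADPH oxidase, with Cyba at 3.75 and 3.44 and Ncf4 at 3.19 and 3.05, besides Rac2 at 2.40 (8 weeks) and Cybb at 2.75 (16 weeks). Macrophage markers were likewise higher than on chow, as given above, and their part was not tested. Duox2, counted among the genes that rose, held at most 0.147 CPM on chow. It passed the filter only through CDA-HFD livers, so its direction was fixed. Selenoprotein supply, which several of these peroxidases and reductases need, had 0 of 7 genes higher, with 1 lower at 8 weeks and 4 at 16 weeks (median 0.02 and -0.36). Sepsecs fell at both times (-0.96 and -1.10), and Sephs2 (-0.66), Secisbp2 (-0.38) and Scly (-0.36) fell at 16 weeks, and the 4 calls at 16 weeks were lost when scaled by total counts. With replicate 3 left out, 2 genes of this list were lower at 8 weeks and 6 at 16 weeks.

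**Figure D4:**
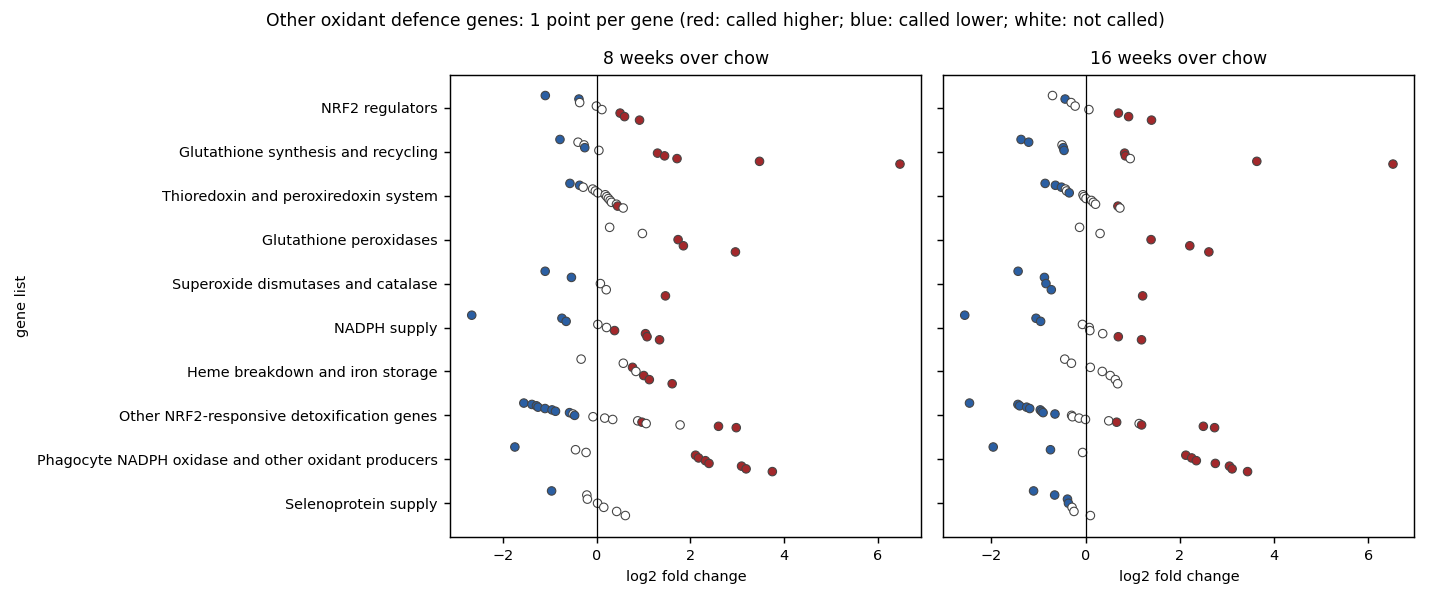
Log2 fold change of each tested gene of the 10 pathway lists at 8 weeks over chow and 16 weeks over chow (1 point per gene, red for called higher, blue for called lower, white for not called). Glutathione peroxidases and the phagocyte oxidase list lie mostly to the right, with medians of 1.74 and 2.25 at 8 weeks, and detoxification genes mostly to the left.

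Between 16 and 8 weeks, some genes of the lists were called as well, where 21.6% of all genes were. Glutathione synthesis had 4 of 10 lower and 0 higher after 16 weeks, with Glo1 (-1.10), Glrx (-0.50), Ggct (-0.47) and Oplah (-0.42). The thioredoxin list had 4 of 14 lower, Txn2 (-0.58), Prdx4 (-0.50) and Prdx6 (-0.49) among them, and 1 higher, Txnip (1.02), the inhibitor of thioredoxin. Keap1 (-0.33), Ccs (-0.93), Sod1 (-0.92), Gpx1 (-1.10), Pgls (-1.41), Gstp1 (-1.08), Adh7 (-0.62), Akr1c13 (-0.49), Eefsec (-0.71), Scly (-0.51) and Sephs2 (-0.45) were lower, and Abcc4 (0.58) was higher. Without 8-week replicate 3 the calls of Ggct, Gpx1, Pgls and Gstp1 were lost, and Glo1 was at -0.61, Sod1 at -0.50, Ccs at -0.49 and Eefsec at -0.29, while 4 of the superoxide dismutase and catalase list were lower in place of 2. Without 16-week replicate 8 the calls were lost of Glrx, Ggct, Prdx4, Txnip, Gpx1, Pgls, Gstp1, Adh7, Akr1c13, Eefsec and Sephs2. Scaled by total counts, which moved the median of all genes by 0.376 here, every lower call named here but that of Glo1 was lost.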

How the data were processed

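RNA was measured in 21 mouse liver samples with stranded total RNA libraries, per the labels' protocols. The authors deposited raw read counts per Ensembl gene. The submitters' processing notes name the build GRCm38, while neither aligner nor counter nor annotation version is stated, and these were not given in the sources used here. Symbols were matched for 52403 of 52636 IDs in an Ensembl-based GRCm38 annotation. Counts were fitted with edgeR 4.0.16 (R 4.3.3) by the quasi-likelihood test with TMM factors, after its expression filter left 17104 genes holding 99.9608% of counts. All 21 libraries entered 1 fit, and p-values were adjusted by Benjamini-Hochberg over all genes tested, at 0.05. The SE is the log2 fold change divided by the root of F. The test was checked on simulated data. Count ratios were computed with 0.5 added to each count and tested with scipy 1.17.1. Alternatives used DESeq2 1.42.0 and limma 3.58.1. Promoter windows came from RefSeq. Replicate numbers follow listing order and pair nothing. The labels do not say that samples are separate animals, so p-values measure the spread between samples. The rule named all 10 genes, up to 4 called genes per list and comparison with the largest fold changes at 1 CPM or more, and the 2 nearest genes by pattern; 1 gene that the rule named is not reported here. The genes and lists were chosen with earlier results of these data known. Intervals cover counting error only.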

Additional observations from a re-analysis of the deposited data

Results flagged for a closer look

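A liver was singled out where its gap to the nearest liver, taken relative to the range of its group, exceeded Dixon's 95% critical value for that group size. This happened in 9 of the 42 groups of values examined, the 10 genes and the 4 ratios in 3 groups each, where chance gives about 1 in 20. The 42 come from the same 21 libraries, so they are not independent. Of these, 7 concerned 8-week replicate 3. It was the lowest of its group for Nfe2l2 (34.63 CPM), Gclc (73.15 CPM), Gclm (53.26 CPM), Txnrd1 (64.18 CPM) and Hmox1 (22.95 CPM). It was the highest for Gpx2 (3.963 CPM) and Gpx3 (415.2 CPM). The same library had the lowest mitochondrial share and the highest sums of squamous, muscle and fat markers, and their part in these values was not tested.

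Chow replicate 1 was the highest chow liver for Nqo1, at 15.37 CPM. Replicate 1 of the 16-week group was the highest of its group for Gclc, at 454.9 CPM.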

How the results depend on the processing

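Results were recomputed under up to 31 alternatives; Gpx2, which some leave out, had 29 at 8 weeks and 30 at 16 weeks over chow. Between 16 and 8 weeks, where 0 of the 10 genes were called, scaling by total counts called 3, DESeq2 1, voom with quality weights 2, leaving out the squamous libraries 2 and leaving out the squamous and pancreas libraries 1. Genes called there numbered 3703, against 2226 with only the 2 groups in the fit and 5579 without the squamous libraries. In that comparison signs turned at small values. With total counts the differences were 0.29 for Gclc, 0.37 for Srxn1, 0.23 for Hmox1 and 0.72 for Gpx2, and Txnrd1 at 16 weeks over chow was 0.33. Gpx2 was 0.081 with no filter and 0.025 with 2 groups, and Gclc 0.0017 with a filter at a mean of 1 CPM, which leaves out Gpx2. With voom, Gclm was -0.025, Txnrd1 -0.086, Srxn1 0.087 and Gpx2 1.87. Without the squamous libraries Gclm was -0.10, Txnrd1 -0.019, Srxn1 0.13 and Gpx2 1.89, and without the pancreas libraries as well -0.13, -0.079, 0.048 and 1.67. The ratio of Txnrd1 to Txnrd2 at 16 weeks over chow was 0.28 on the log2 scale under both and lost its call, and at 8 weeks it was 0.12 under the second. The 8-week ratio of Hmox1 to Hmox2 was 1.17 and 1.27 and passed. The cause was not tested.

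Leaving out each library in turn, 16 against 8 weeks gave 2248 to 5132 genes called and 0 to 1 of the 10, with ranges of -0.168 to 0.052 for Gclc, -0.0559 to 0.128 for Gclm, -0.0455 to 0.146 for Txnrd1, -0.124 to 0.0668 for Srxn1, -0.235 to 0.00592 for Hmox1, -0.221 to 1.23 for Gpx2 and -0.00665 to 1.53 for Gpx3. The lowest gene count came without 16-week replicate 8 and the call of Gpx3 without 8-week replicate 3. The Txnrd1 to Txnrd2 ratio ranged from 0.258 to 0.383 at 16 weeks and from -0.385 to 0.116 at 8 weeks, and Hmox1 to Hmox2 at 8 weeks from 0.521 to 1.24. Calls that were higher made up 60.07% at 8 weeks, 56.64% at 16 weeks and 48.99% between them, against 78.28%, 89.55% and 94.78% with total counts. No paired analysis was possible because the labels give no replicate numbers shared between groups. Depth limits Gpx2 alone among the 10 genes, with 3 counts over all chow livers.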
